A study of Mus musculus with 24 samples.

Results

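The genes described here are 8 muscle genes of the neuromuscular synapse and of the response to loss of innervation, *Chrna1*, *Chrnb1*, *Chrnd*, *Chrng*, *Chrne*, *Musk*, *Ncam1* and *Runx1*. They were chosen by symbol, and all 8 were found among the 14159 genes with a symbol in the matrix. Bulk RNA of the quadriceps was sequenced from female mice of the strains C57BL/6, called B6 here, and MRL/MpJ, called MRL. The mice were 6 to 8 weeks old at surgery, and the age of the uninjured mice at collection was not given. There were 3 libraries in each of 8 groups and 24 in all. Each strain contributed an uninjured group and 3 groups with volumetric muscle loss (VML), in which a piece of the mid-belly is cut out. The defect was filled with saline, with a suspension of decellularized extracellular matrix from pig small intestine (ECM) or with polyethylene powder (PE), and injured muscle was collected on day 21. Each library came from whole quadriceps, so muscle next to the defect, the implant and the cells around it were read together, and fewer cells of a type cannot be told apart from less of an RNA per cell.

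The acetylcholine receptor of skeletal muscle is a pentamer that opens when the motor nerve releases acetylcholine. Fetal and denervated fibres build it from alpha, beta, delta and gamma subunits, and innervated adult fibres replace gamma with epsilon. In adult muscle the subunit genes are transcribed mainly in the nuclei under the synapse, and electrical activity keeps them low elsewhere. When the nerve is lost, or while regenerating fibres are not yet innervated, the genes for alpha, delta and gamma are switched on along the fibre through the myogenic factor myogenin, and the adhesion molecule NCAM and the transcription factor RUNX1 appear with them.

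Values are log2 CPM, the log2 of counts relative to the scaled size of the library, so a difference of 1 is a doubling. Groups were compared with limma over all 24 libraries, and a gene was called at a Benjamini-Hochberg adjusted p under 0.05 over all genes. Before the results, 2 injured libraries have to be named. The B6 Saline replicate 2 library had the lowest level of its group for 7 of the 8 genes, all but *Chrne*. The MRL PE replicate 2 library held a summed level of 12 leukocyte genes of 5799 CPM, against 255 and 275 CPM in MRL PE replicates 1 and 3. The 3 B6 PE libraries held 1869 to 6345 CPM of the same genes, the B6 Saline libraries 362 to 491 CPM and the uninjured B6 libraries 177 to 197 CPM. Whether these 2 libraries differ from their groups through where muscle was taken, through labelling or through the response of the mouse cannot be told apart here. Both were kept, and the counts of calls and the values that moved most are also given without them. B6 Saline replicate 2 was picked by the levels of these same genes. Leaving it out therefore raises the saline means of those 7 genes and narrows their spread. The p-values obtained without it are not independent support. Uninjured replicate 2 had the highest summed level of 7 adipocyte genes in both strains. It was 3941 CPM in B6, against 931 and 1489 CPM, and 2263 CPM in MRL, against 234 and 619 CPM. The sum of 8 Schwann cell and myelin genes was 456 CPM in B6 Uninjured replicate 2, against 151 and 40.0 CPM. In MRL it was lowest in replicate 2, at 27.8 CPM. The part of this in the differences was not tested.

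In B6 mice all 8 genes had a higher mean after each kind of injury than in uninjured muscle. Of all genes, 48.6%, 49.5% and 51% had a higher mean after saline, ECM and PE. After PE injury 5 of the 8 were called higher and 0 lower, against 24.8% of all genes called in either direction in that comparison. These were the receptor genes *Chrna1*, *Chrnd* and *Chrng* together with *Ncam1* and *Runx1*. The median of the 8 differences was 3.02 on the log2 scale, against 0.02 over all genes. After saline injury the median was 3.03 and after ECM 2.73, but limma called 0 of the 8 in both, with 8 and 7 of them at an unadjusted p under 0.05. Over all genes 0% were called after saline and 0.424% after ECM, while 12.4% and 16.8% had an unadjusted p under 0.05.

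In MRL mice 0 of the 8 genes were called by limma after any injury. The medians were 1.53 after saline, 1.86 after ECM and 0.55 after PE, with 1, 4 and 0 genes at an unadjusted p under 0.05. Over all genes 0% were called after saline, 0.0141% after ECM and 9.73% after PE, while 3.1%, 3.8% and 36.1% had an unadjusted p under 0.05. Genes whose 3 injured libraries all lay above the 3 uninjured ones numbered 5 after saline, 6 after ECM and 5 after PE in B6, and 1, 5 and 0 in MRL. Over all genes that pattern held for 8.59%, 17.7% and 27% in B6 and for 5.97%, 6.19% and 18.9% in MRL. With 3 libraries against 3, an exact permutation test gives such a gene p = 0.1, the smallest value it can reach. For *Chrnd*, *Ncam1* and *Runx1*, B6 Saline replicate 2 lay above the uninjured B6 libraries by only a small margin.

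**Figure D1:**
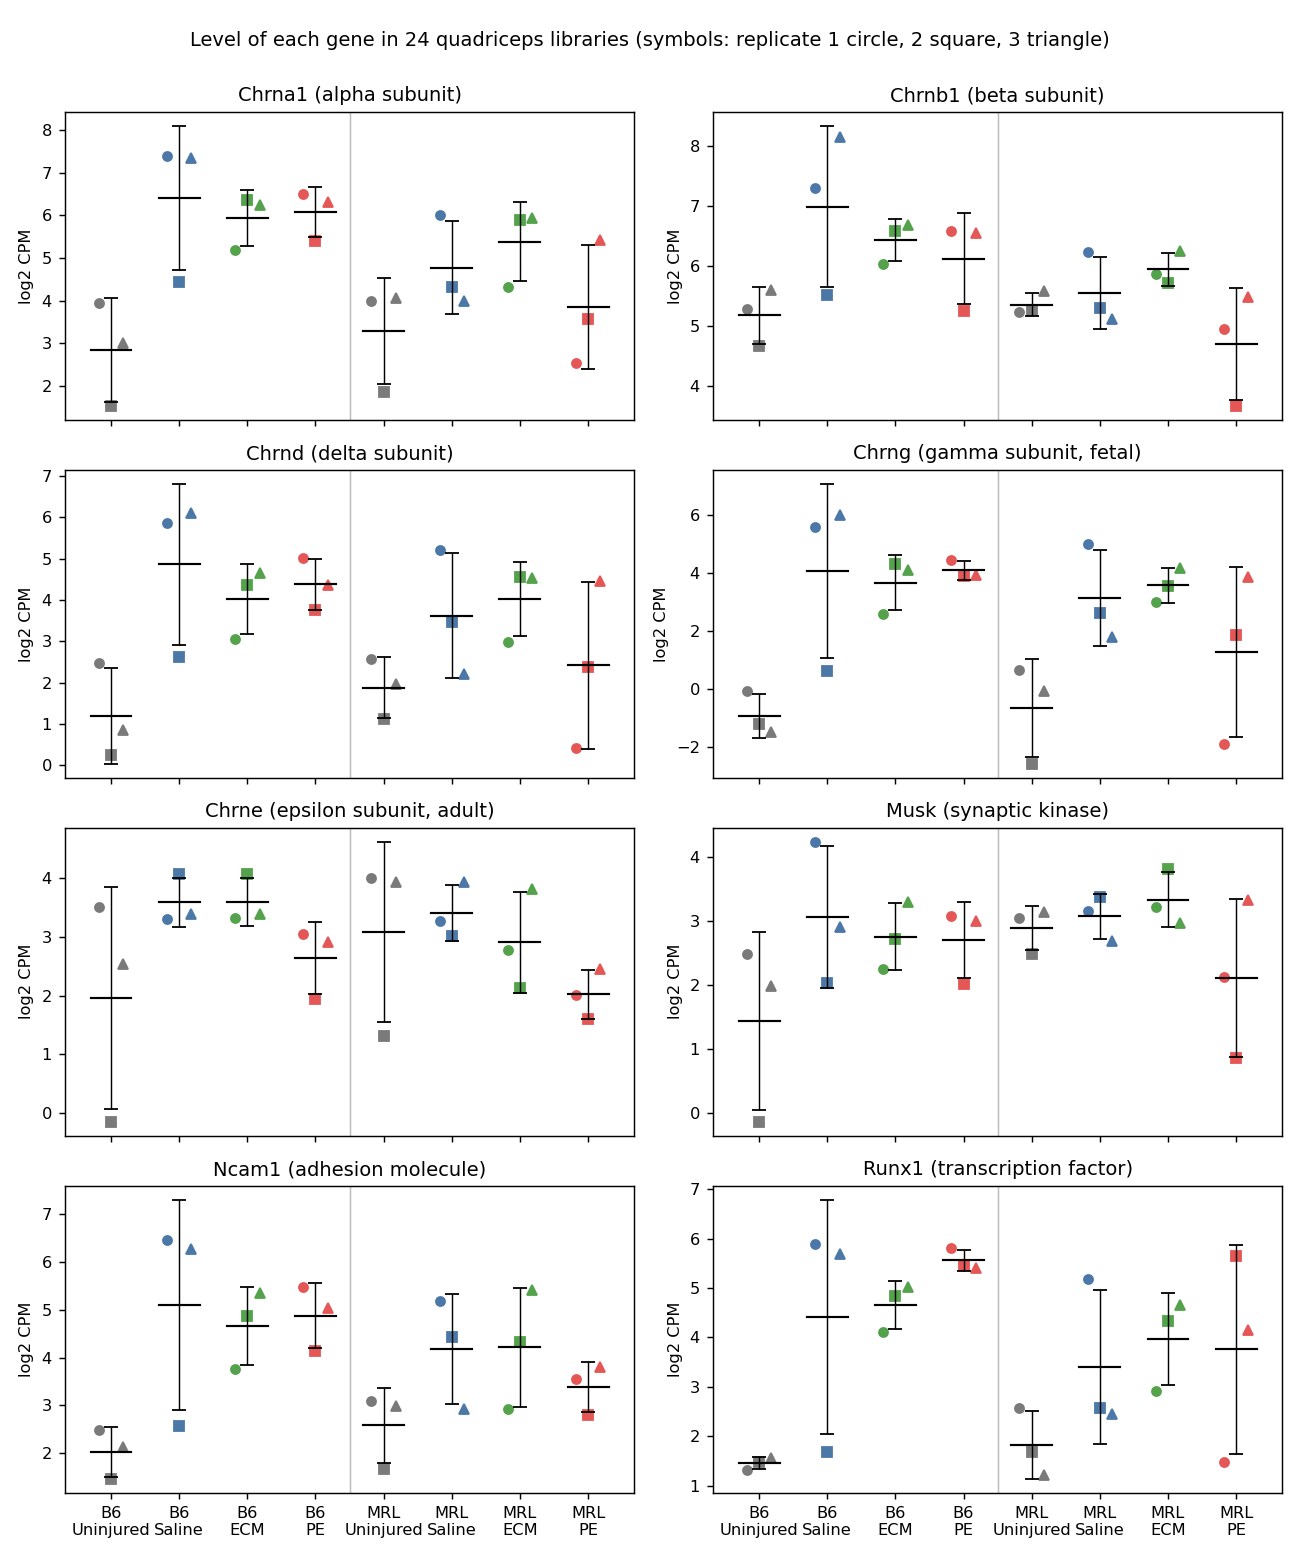
Level of each of the 8 genes in log2 CPM (y axis) in the 3 libraries of each group (x axis), with a circle, square and triangle for replicates 1, 2 and 3, a line for the mean and bars for the SD. The square of B6 Saline lies far below the circle and triangle for Chrng (0.61 against 5.57 and 6.00) and Runx1 (1.69 against 5.88 and 5.69), and the 3 B6 PE points of Runx1 lie between 5.41 and 5.81.

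*Chrng* encodes the fetal gamma subunit and lies at chr1:87132379-87140416 on the plus strand of GRCm39, 4583 bases after the end of *Chrnd*. In uninjured B6 muscle it stood at -0.07, -1.22 and -1.50 log2 CPM, and in uninjured MRL muscle at 0.65, -2.59 and -0.09. The MRL value of -2.59, or 0.0868 CPM, was the only one of any of the 8 genes below the level of 3 counts, which is 0.119 CPM at the mean library size. The fetal subunit was low before injury, at a mean of 0.499 CPM in B6 and 0.810 CPM in MRL. The other uninjured libraries lay above the level of 3 counts, from 0.273 to 1.48 CPM. After PE injury in B6 it stood at 4.45, 3.88 and 3.93, a mean of 17.2 CPM, and the difference of 5.02 ± 1.33 (SE, n = 3 per group) was the largest among the 8 genes (limma adjusted p = 0.0145). After ECM the B6 libraries read 2.57, 4.30 and 4.09, all above the uninjured ones, with a difference of 4.58 (limma adjusted p = 0.124). After saline they read 5.57, 0.61 and 6.00, the 2 highest values of the gene in the study beside 1 near the uninjured range. The difference was 4.99 (limma adjusted p = 0.240). Without B6 Saline replicate 2, which was picked by its low level of these genes, it was 6.72 (limma adjusted p = 0.00884).

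In MRL mice *Chrng* stood at 4.98, 2.62 and 1.78 after saline and at 2.99, 3.55 and 4.18 after ECM. All 6 libraries lay above the uninjured MRL libraries. The differences were 3.80 and 4.25, with unadjusted p of 0.0100 and 0.00477 and an adjusted p of 1 in both (limma). After PE the MRL libraries read -1.92, 1.85 and 3.86, so that replicate 1 lay inside the uninjured range and replicate 3 at the level of B6. The difference was 1.94, with a 95% interval from -0.84 to 4.72. It was 3.53 without MRL PE replicate 1 (limma adjusted p = 0.0549), 0.64 without MRL PE replicate 3 and 0.98 without MRL Uninjured replicate 2.

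The 250 bases before the start of *Chrng*, *Chrna1* and *Chrne* are shown because *Chrng* had the largest increase after injury, *Chrna1* was called with it and *Chrne* was not. They were read from the RefSeq promoter table of GRCm38.p6, which held 6 of the 8 genes. Capitals mark CAGCTG, an E-box of the kind that myogenic factors bind, and CCGGAA in either direction, the N-box core bound by ETS factors in synapse genes. CAGCTG reads the same on both strands, and the motifs do not overlap each other.
Chrng, chr1:87205561-87205810, plus strand: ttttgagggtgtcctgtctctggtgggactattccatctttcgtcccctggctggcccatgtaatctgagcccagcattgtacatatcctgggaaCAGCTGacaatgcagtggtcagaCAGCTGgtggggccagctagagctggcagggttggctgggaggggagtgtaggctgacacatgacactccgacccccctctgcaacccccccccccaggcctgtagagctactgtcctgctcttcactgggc
Chrna1, chr2:73580339-73580588, minus strand: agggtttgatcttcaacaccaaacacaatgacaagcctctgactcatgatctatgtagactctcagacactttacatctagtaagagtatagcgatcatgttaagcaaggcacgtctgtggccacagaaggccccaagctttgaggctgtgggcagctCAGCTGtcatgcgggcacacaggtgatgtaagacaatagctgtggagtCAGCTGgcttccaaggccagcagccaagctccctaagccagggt
Chrne, chr11:70619195-70619444, minus strand: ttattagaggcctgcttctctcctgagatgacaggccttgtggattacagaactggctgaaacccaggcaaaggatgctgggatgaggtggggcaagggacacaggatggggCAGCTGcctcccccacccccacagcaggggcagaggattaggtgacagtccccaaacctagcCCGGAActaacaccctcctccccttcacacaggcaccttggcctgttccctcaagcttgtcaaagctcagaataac
CAGCTG began 155 and 132 bases before the start of *Chrng* and 92 and 44 bases before that of *Chrna1*. The *Chrne* stretch held CAGCTG once, 138 bases before the start, and CCGGAA once, 76 bases before it. Of 32851 promoters of the same length, 13.0% held CAGCTG at least once, 1.26% held it 2 or more times and 12.03% held CCGGAA. The *Musk* stretch held CAGCTG once, and the *Chrnb1* stretch held neither motif. *Runx1* had 2 entries, of which 1 held CCGGAA once and the other neither motif. These matches describe letters and are not evidence of binding.

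*Chrne* encodes the adult epsilon subunit and lies at chr11:70505707-70510125 on the minus strand of GRCm39. Its Pearson r with *Chrng* was 0.38 over the 24 libraries. In uninjured muscle it stood at 3.51, -0.15 and 2.54 log2 CPM in B6 and at 4.01, 1.32 and 3.94 in MRL, with replicate 2 the lowest in both strains. The same 2 libraries were the lowest of the 24 for *Colq*, the collagen tail that anchors acetylcholinesterase in the synaptic cleft, at -0.82 and 0.30 against 1.76 to 3.92 in every other library. After injury the B6 libraries of *Chrne* read 3.30, 4.07 and 3.40 with saline, 3.32, 4.07 and 3.39 with ECM and 3.06, 1.94 and 2.92 with PE. Each injured group overlapped the uninjured one, and limma gave adjusted p of 0.389, 0.283 and 0.509. Without B6 Uninjured replicate 2 the saline and ECM differences of 1.62 and 1.63 were 0.57 in both, and the PE difference of 0.67 became -0.38.

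In MRL mice *Chrne* stood at 3.28, 3.01 and 3.95 after saline, at 2.78, 2.13 and 3.82 after ECM and at 2.01, 1.61 and 2.45 after PE. All of these lay within the uninjured range of 1.32 to 4.01. The differences were 0.32, -0.18 and -1.07 (limma adjusted p of 1, 1 and 0.302). Without MRL Uninjured replicate 2 they were -0.56, -1.06 and -1.95.

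The balance of the fetal and adult subunits was taken within each library as log2 CPM of *Chrng* minus that of *Chrne*. Library scaling cancels in it only where both levels lie well above the prior count of 2 that the values carry. In MRL Uninjured replicate 2 *Chrng*, at 0.0868 CPM, was close to the 0.0795 CPM of that prior. In uninjured muscle it was -2.90 ± 1.60 in B6 and -3.77 ± 0.36 in MRL (mean ± SD, n = 3). Per kilobase of transcript, *Chrng* made up 2.79% to 20.4% of the sum of the 2 genes in uninjured B6 libraries and 2.12% to 5.30% in uninjured MRL libraries. In B6 mice the balance was 0.06 ± 0.74 after ECM and 1.45 ± 0.47 after PE, with no overlap with uninjured muscle (exact permutation p = 0.1 for each, the smallest possible, adjusted p = 0.32 over 16 comparisons). The *Chrng* share was 26.3% to 49.5% after ECM and 54.9% to 70.2% after PE, and these 2 groups did not overlap each other either (exact permutation p = 0.1). After saline it was 74.6%, 4.94% and 78.7% in replicates 1 to 3, and the balance of 0.47 ± 3.41 overlapped that of uninjured muscle (exact permutation p = 0.2).

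In MRL mice the balance was -0.29 ± 1.94 after saline and 0.66 ± 0.66 after ECM, both without overlap with uninjured muscle (exact permutation p = 0.1 for each, adjusted p = 0.32). After PE it was -0.76 ± 2.81, with *Chrng* shares of 2.73%, 41.8% and 61.8% in replicates 1 to 3 (exact permutation p = 0.3). Replicate 1 alone overlapped the uninjured MRL libraries. Between strains the balance differed by -0.87 in uninjured muscle, -0.76 after saline, 0.60 after ECM and -2.21 after PE, with overlap in each case (exact permutation p of 0.7, 0.8, 0.5 and 0.3).

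**Figure D2:**
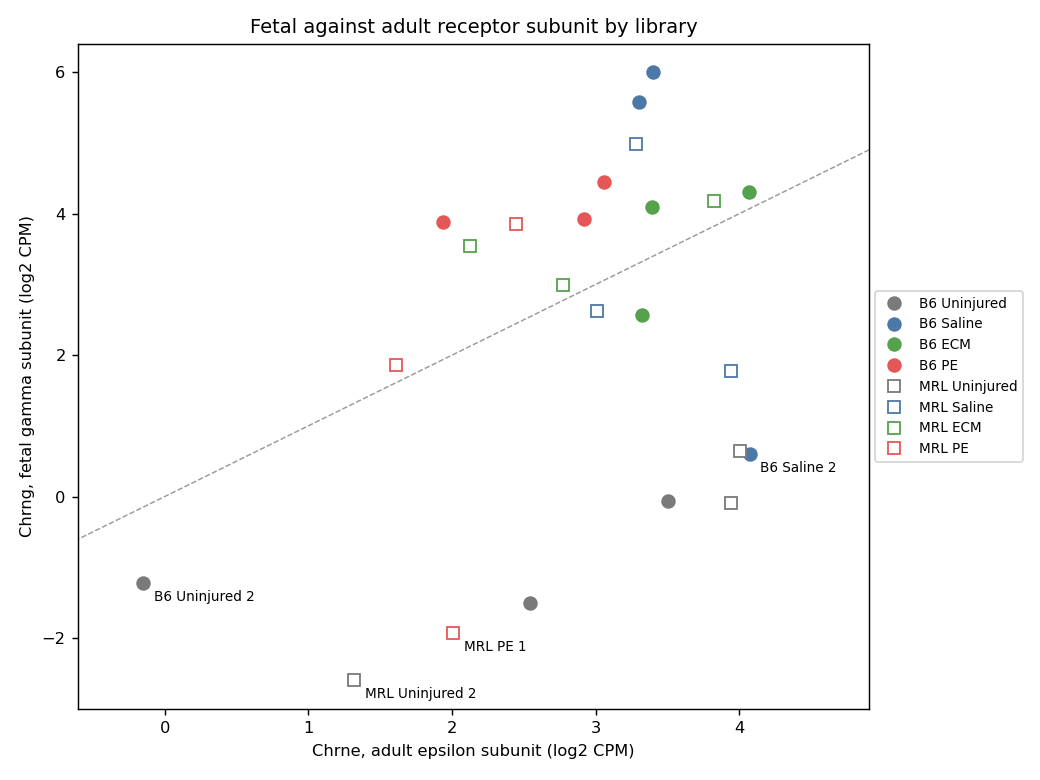
Chrng (y axis) against Chrne (x axis) in log2 CPM, 1 point per library, with filled circles for B6, open squares for MRL and a dashed line where the values are equal. The 6 uninjured libraries, B6 Saline replicate 2 and MRL PE replicate 1 lie below the line with Chrng at 0.65 or less, MRL Saline replicate 3 lies below it with Chrng at 1.78, and the 3 B6 PE libraries lie above it.

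*Chrna1* encodes the alpha subunit, which carries the acetylcholine binding sites together with its neighbours, and lies at chr2:73393557-73410835 on the minus strand of GRCm39. Uninjured B6 libraries stood at 3.96, 1.53 and 3.01 log2 CPM. They stood at 7.40, 4.45 and 7.36 after saline, at 5.19, 6.37 and 6.25 after ECM and at 6.50, 5.40 and 6.32 after PE, so every injured B6 library lay above every uninjured one. The differences were 3.57, 3.11 and 3.24, with a SE of 0.87 in each, and the PE difference was called (limma adjusted p of 0.223, 0.114 and 0.0157). Uninjured MRL libraries stood at 3.98, 1.86 and 4.05. After injury they stood at 6.01, 4.33 and 3.98 with saline, at 4.32, 5.89 and 5.94 with ECM and at 2.54, 3.58 and 5.43 with PE. The ECM libraries all lay above the uninjured ones (difference 2.09, unadjusted p = 0.0275, limma adjusted p = 1), and the other 2 groups overlapped them (1.48 and 0.55). Without MRL Uninjured replicate 2 the differences were 0.76 after saline, 1.37 after ECM and -0.17 after PE.

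*Chrnd*, the delta subunit gene at chr1:87118306-87127795 on the plus strand of GRCm39, had nearly the same pattern. It stood at 2.48, 0.25 and 0.84 log2 CPM in uninjured B6 muscle, at 5.87, 2.62 and 6.10 after saline, at 3.05, 4.36 and 4.66 after ECM and at 5.01, 3.76 and 4.36 after PE. No injured B6 library reached down to the uninjured range, although B6 Saline replicate 2 at 2.62 lay close to the highest uninjured value of 2.48. The PE difference of 3.19 ± 0.99 (SE, n = 3 per group) was called (limma adjusted p = 0.0282), and those after saline and ECM were 3.67 and 2.83 (limma adjusted p of 0.245 and 0.176). MRL libraries stood at 2.57, 1.11 and 1.96 uninjured, at 5.21, 3.46 and 2.20 after saline, at 2.98, 4.56 and 4.53 after ECM and at 0.42, 2.38 and 4.47 after PE. ECM was the only injured MRL group without overlap (2.14, unadjusted p = 0.0436, limma adjusted p = 1). After PE replicate 1 lay below, and replicate 3 above, all uninjured MRL libraries.

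*Chrnb1*, the beta subunit gene at chr11:69674860-69686773 on the minus strand of GRCm39, belongs to both the fetal and the adult receptor. It was the most abundant receptor transcript per length in uninjured B6 muscle, at a mean of 17.4 CPM per kb, against 3.50 for *Chrne*, 1.92 for *Chrna1*, 0.931 for *Chrnd* and 0.177 for *Chrng*. In uninjured MRL muscle the order was the same, from 19.1 for *Chrnb1* and 6.60 for *Chrne* to 0.287 for *Chrng*. Its log2 CPM went from 5.27, 4.66 and 5.60 in uninjured B6 muscle to 7.31, 5.52 and 8.14 after saline, 6.04, 6.59 and 6.68 after ECM and 6.57, 5.24 and 6.55 after PE. The ECM group alone lay wholly above the uninjured one. The differences were 1.81, 1.26 and 0.94, and 0 of them were called (limma adjusted p of 0.288, 0.258 and 0.191, with unadjusted p of 0.00329, 0.0308 and 0.0962). Without B6 Saline replicate 2 the saline difference was 2.54 (limma adjusted p = 0.0101). In MRL mice the gene stood at 5.23, 5.26 and 5.58 uninjured, 6.23, 5.30 and 5.12 after saline, 5.87, 5.71 and 6.25 after ECM and 4.95, 3.67 and 5.48 after PE. The lowest of these was MRL PE replicate 2, and the summed level of 12 adult fibre genes there was 38361 CPM, against 147607 and 149501 CPM in the other 2 libraries of the group. The part of fibre content in the PE difference of -0.66 was not tested. Centring each library on those fibre genes gave 0.56, but it shifts all genes of a library alike. The median of all genes in that comparison moved from 0.07 to 1.29 with it.

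*Musk* encodes the receptor tyrosine kinase through which agrin from the nerve assembles the synapse, and it lies at chr4:58285931-58377847 on the plus strand of GRCm39. It stood at 2.48, -0.13 and 1.98 log2 CPM in uninjured B6 muscle and at 3.04, 2.49 and 3.15 in uninjured MRL muscle. All 3 MRL libraries lay above all 3 B6 libraries, with a difference of 1.45 (unadjusted p = 0.0362, limma adjusted p = 0.392), but the nearest values were 2.49 and 2.48. Without B6 Uninjured replicate 2 the difference was 0.66 (limma adjusted p = 0.999). With all libraries *Musk* was the only 1 of the 8 genes without overlap between uninjured strains. The share of all genes with that pattern was not counted, so this cannot be set against it. Between uninjured strains limma called 0 of the 8, 1 of them at an unadjusted p under 0.05, against 2.6% of all genes called and 10.9% at an unadjusted p under 0.05. After injury B6 libraries of *Musk* stood at 4.24, 2.04 and 2.91 with saline, 2.25, 2.72 and 3.30 with ECM and 3.08, 2.02 and 3.00 with PE, all overlapping the uninjured group (differences of 1.62, 1.32 and 1.26). Without B6 Uninjured replicate 2 these were 0.83, 0.53 and 0.47. MRL libraries stood at 3.16, 3.38 and 2.68 with saline, 3.23, 3.82 and 2.97 with ECM and 2.13, 0.86 and 3.33 with PE, and the differences were 0.18, 0.44 and -0.79. The lowest was again MRL PE replicate 2.

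*Ncam1* encodes the neural cell adhesion molecule, which covers the surface of denervated and regenerating fibres and is also made by satellite cells and some Schwann cells. It lies at chr9:49413436-49710357 on the minus strand of GRCm39. Uninjured B6 libraries stood at 2.47, 1.45 and 2.13 log2 CPM, and injured ones at 6.47, 2.57 and 6.28 with saline, 3.75, 4.87 and 5.34 with ECM and 5.47, 4.13 and 5.03 with PE. Every injured B6 library was higher than every uninjured one, although B6 Saline replicate 2 was so by only a small margin. The PE difference of 2.86 ± 0.84 (SE, n = 3 per group) was called (limma adjusted p = 0.0222), and those after saline and ECM were 3.09 and 2.64 (limma adjusted p of 0.245 and 0.148). MRL libraries stood at 3.09, 1.67 and 2.97 uninjured, 5.18, 4.42 and 2.93 after saline, 2.92, 4.32 and 5.41 after ECM and 3.54, 2.81 and 3.81 after PE. Each injured MRL group overlapped the uninjured one, with differences of 1.60, 1.64 and 0.81, and the ECM difference was 1.04 without MRL ECM replicate 3. The summed level of 8 Schwann cell and myelin genes, with 2 of the 10 listed not in the matrix, was 28.9 to 36.2 CPM after PE in B6, below the 40.0 to 456 CPM of uninjured B6 muscle.

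*Runx1* encodes a transcription factor that limits wasting of denervated fibres and is best known from blood cells, and it lies at chr16:92398354-92623037 on the minus strand of GRCm39. Uninjured B6 libraries stood close together at 1.33, 1.47 and 1.57 log2 CPM. After PE they stood at 5.81, 5.47 and 5.41, again close together, and the difference of 4.10 ± 1.00 (SE, n = 3 per group) was called (limma adjusted p = 0.00999). After ECM they stood at 4.10, 4.84 and 5.02 and after saline at 5.88, 1.69 and 5.69, with differences of 3.20 and 2.96 (limma adjusted p of 0.140 and 0.303). The B6 PE group was the only 1 in the ordered group means of any of the 8 genes that lay wholly above the next group, here B6 ECM. For every other pair of neighbours in those orders the libraries overlapped. The *Runx1* difference between B6 PE and B6 ECM was 0.91 and was not called (limma adjusted p = 0.629). The share of all genes with such a gap was not counted, so it cannot be set against this.

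MRL libraries of *Runx1* stood at 2.58, 1.68 and 1.21 uninjured, 5.19, 2.56 and 2.44 after saline, 2.91, 4.34 and 4.65 after ECM and 1.47, 5.65 and 4.15 after PE. The ECM group lay wholly above the uninjured one (2.14, unadjusted p = 0.0448, limma adjusted p = 1). After PE the highest library was the leukocyte-rich replicate 2 and the lowest replicate 1, and the difference was 1.93 (limma adjusted p = 0.167), or 3.07 without MRL PE replicate 1 (limma adjusted p = 0.0380) and 0.98 without the leukocyte-rich replicate 2 (limma adjusted p = 0.599). In B6 Saline replicates 1 and 3 *Runx1* was as high as in B6 PE, at 5.88 and 5.69, with leukocyte sums of 491 and 433 CPM against 1869 to 6345 CPM in B6 PE. In MRL PE replicate 2 it stood at 5.65 with a leukocyte sum of 5799 CPM. The part of leukocyte RNA in the *Runx1* differences was not tested.

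**Figure D3:**
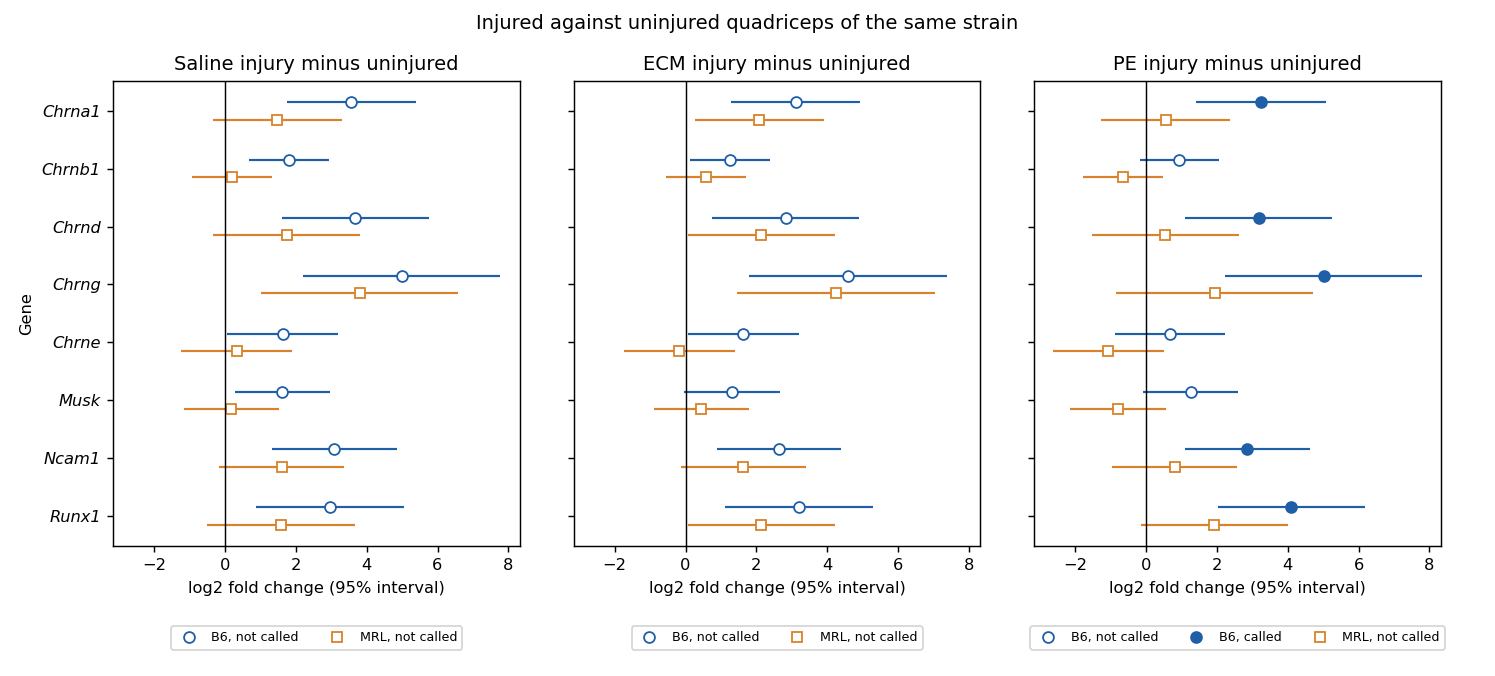
Difference in log2 CPM between injured and uninjured muscle of the same strain (x axis) for each gene (y axis), with 95% intervals from limma, circles for B6, squares for MRL and filled symbols for genes called. Every B6 estimate lies right of 0, the 5 filled circles are in the PE panel, and the MRL PE estimates spread from -1.07 for Chrne to 1.94 for Chrng.

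The 5 calls after PE in B6 depended on single libraries. Without B6 PE replicate 2 limma called 0 of the 8, with adjusted p of 0.0504 for *Chrna1* and 0.0502 for *Runx1*, while genes called overall fell from 3508 to 533. Without B6 PE replicate 1 or B6 Uninjured replicate 3 it called 3, *Chrna1*, *Chrng* and *Runx1*, and without B6 Uninjured replicate 2 it called 2, *Chrng* and *Runx1*, with 2087, 1719 and 2576 genes called overall. In all of these the estimates of the 5 genes stayed between 2.56 and 5.12. After saline in B6 the count went from 0 to 6 without B6 Saline replicate 2, and the 6 were *Chrna1*, *Chrnb1*, *Chrnd*, *Chrng*, *Ncam1* and *Runx1*, with estimates from 2.54 to 6.72, while genes called overall went from 0 to 456. Without B6 Saline replicate 1 or replicate 3 the count stayed at 0, with 0 and 9 of all genes called. After PE in MRL the count stayed at 0 without MRL PE replicate 2, and genes called overall fell from 1377 to 1.

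Among the injured groups of one strain 0 of the 8 genes were called by limma in any of the 6 comparisons, and 1 gene in all had an unadjusted p under 0.05, in MRL PE against MRL ECM. The share of all genes at that unadjusted p ran from 3.55% in MRL ECM against MRL saline to 28.4% in MRL PE against MRL ECM. In B6 the medians were -0.43 for ECM minus saline, -0.34 for PE minus saline and 0.18 for PE minus ECM, where 0.0283%, 5.97% and 0.226% of all genes were called. In MRL they were 0.40 for ECM minus saline, -0.95 for PE minus saline and -1.24 for PE minus ECM, where 0.00706%, 0% and 0% were called. All 8 genes had a lower mean with PE than with ECM in MRL mice, and 5 of 8 a higher one in B6 mice. Of all genes, 55.1% in MRL and 50.5% in B6 had a higher mean with PE than with ECM.

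Between strains within 1 treatment, limma also called 0 of the 8. Of all genes, 51.2%, 47.8% and 48.3% had a higher mean in MRL after saline, ECM and PE. After saline 7 of the 8 were lower in MRL (median -0.98, 1 with an unadjusted p under 0.05, 2.51% of all genes called). After ECM 6 were lower (median -0.47, 0 with an unadjusted p under 0.05, 2.66%). After PE all 8 were lower in MRL, with a median of -1.65 and a range from -0.59 for *Musk* to -2.82 for *Chrng*, against 3.35% of all genes called. Of these, *Chrna1* at -2.22, *Chrnb1* at -1.42 and *Chrng* had unadjusted p of 0.0198, 0.0160 and 0.0471 (limma adjusted p of 0.169, 0.151 and 0.255). All 3 MRL PE libraries of *Chrng* and *Ncam1* lay below all 3 B6 PE libraries, although for *Chrng* MRL PE replicate 3 did so by 3.86 against 3.88. How large a share of all genes had that pattern between strains was not counted. Without MRL PE replicate 1 the strain difference after PE was -1.23 for *Chrng*, -0.96 for *Chrnd* and -0.66 for *Runx1*. Without MRL PE replicate 2 it was -0.91 for *Chrnb1* and 0.027 for *Musk*. Without B6 Saline replicate 2 *Chrnb1* was called lower in MRL after saline (-2.17, limma adjusted p = 0.0145), among 613 of 14159 genes. With library weights limma called 4 of the 8 after saline and 6 after PE, with 2303 and 6477 of the 14159 genes called (16.3% and 45.7%).

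The change with injury was set against the other strain through the interaction, the MRL difference minus the B6 difference. In uninjured muscle all 8 genes had a higher mean in MRL than in B6 (median 0.51), against 50% of all genes. That difference between uninjured strains is part of each interaction. All 8 estimates of the interaction were negative for each treatment, which share the uninjured groups. Of all genes, 52.4%, 49.6% and 46.7% had a positive estimate for saline, ECM and PE. Several of the 8 genes moved closely together across libraries, so their signs are not separate observations. The medians of the 8 were -1.47 for saline, -0.94 for ECM and -2.11 for PE. In each, limma called 0 of the 8, with 1, 0 and 3 at an unadjusted p under 0.05. Over all genes 0%, 0.00706% and 0.0212% were called, while 4.03%, 3.62% and 11.7% had an unadjusted p under 0.05. The 3 genes with an unadjusted p under 0.05 for PE were *Chrna1* at -2.69, *Chrnb1* at -1.60 and *Musk* at -2.05, with 95% intervals from -5.27 to -0.10, from -3.19 to -0.01 and from -3.95 to -0.14. For *Chrng* the interval ran from -7.01 to 0.86, and an equal response and a much weaker one in MRL both lie inside it. Without MRL PE replicate 1 the estimate for *Chrng* was -1.48, and without B6 Uninjured replicate 2 that for *Musk* was -1.26.

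Of 15 listed genes that build the synapse around the receptor, which include agrin, its receptor LRP4, the MuSK partner DOK7 and the receptor anchor rapsyn, 0 were called higher by limma after any injury in either strain. Over all genes 0% were called in either direction after saline in both strains, 0.424% and 0.0141% after ECM and 24.8% and 9.73% after PE in B6 and MRL. After PE in B6 limma called 1 of the 15 lower, *Gabpa*, an ETS factor of synaptic nuclei (-0.67, adjusted p = 0.0132). After PE in MRL it called 1 lower, *Dtna*, which encodes alpha-dystrobrevin of the dystrophin complex (-1.25, adjusted p = 0.0474). The list medians were 0.50, 0.32 and -0.05 after saline, ECM and PE in B6 and 0.09, 0.05 and -0.25 in MRL. The difference of *Colq* in B6 was 1.99, 1.97 and 1.31, and it was called for none (limma adjusted p of 0.357, 0.250 and 0.234). Without B6 Uninjured replicate 2, where *Colq* was lowest, it was 0.85, 0.82 and 0.17, an alternative chosen after seeing the data.

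Of 15 genes of the response to activity and denervation, 4 were called higher and 1 lower after PE in B6, against 24.8% of all genes called. Higher were *Sln*, the calcium pump inhibitor sarcolipin (5.47, limma adjusted p = 0.0167), *Myog*, which encodes myogenin (2.78, adjusted p = 0.0263), the stress gene *Gadd45a* (2.24, adjusted p = 0.0236) and the cell cycle inhibitor *Cdkn1a* (2.28, adjusted p = 0.0460). *Dach2*, a repressor of myogenin, was lower (-2.72, limma adjusted p = 0.0164). The genes for the ubiquitin ligases of atrophy, *Fbxo32* and *Trim63*, were not among the called genes in B6. In MRL mice after PE they were called lower (-1.32 and -1.33, limma adjusted p of 0.0474 and 0.0448), as was the deacetylase gene *Hdac9* (-1.31, adjusted p = 0.0491), and 0 of the 15 were called higher, against 9.73% of all genes called in either direction. After saline and ECM 0 of the 15 were called by limma in either strain.

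*Sln* and *Myog* were also lowest in B6 Saline replicate 2 within their group and highest in MRL PE replicate 3 within theirs. *Sln* stood at 8.68, 2.48 and 9.82 log2 CPM after saline in B6, where replicate 2 was inside the uninjured range of 2.26 to 2.83. After PE in MRL it stood at 1.79, 4.70 and 7.42, in the order of *Chrng* over the same libraries. *Myog* stood at 6.66, 2.63 and 7.21 after saline in B6 and at 2.29, 2.90 and 4.69 after PE in MRL.

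**Figure D4:**
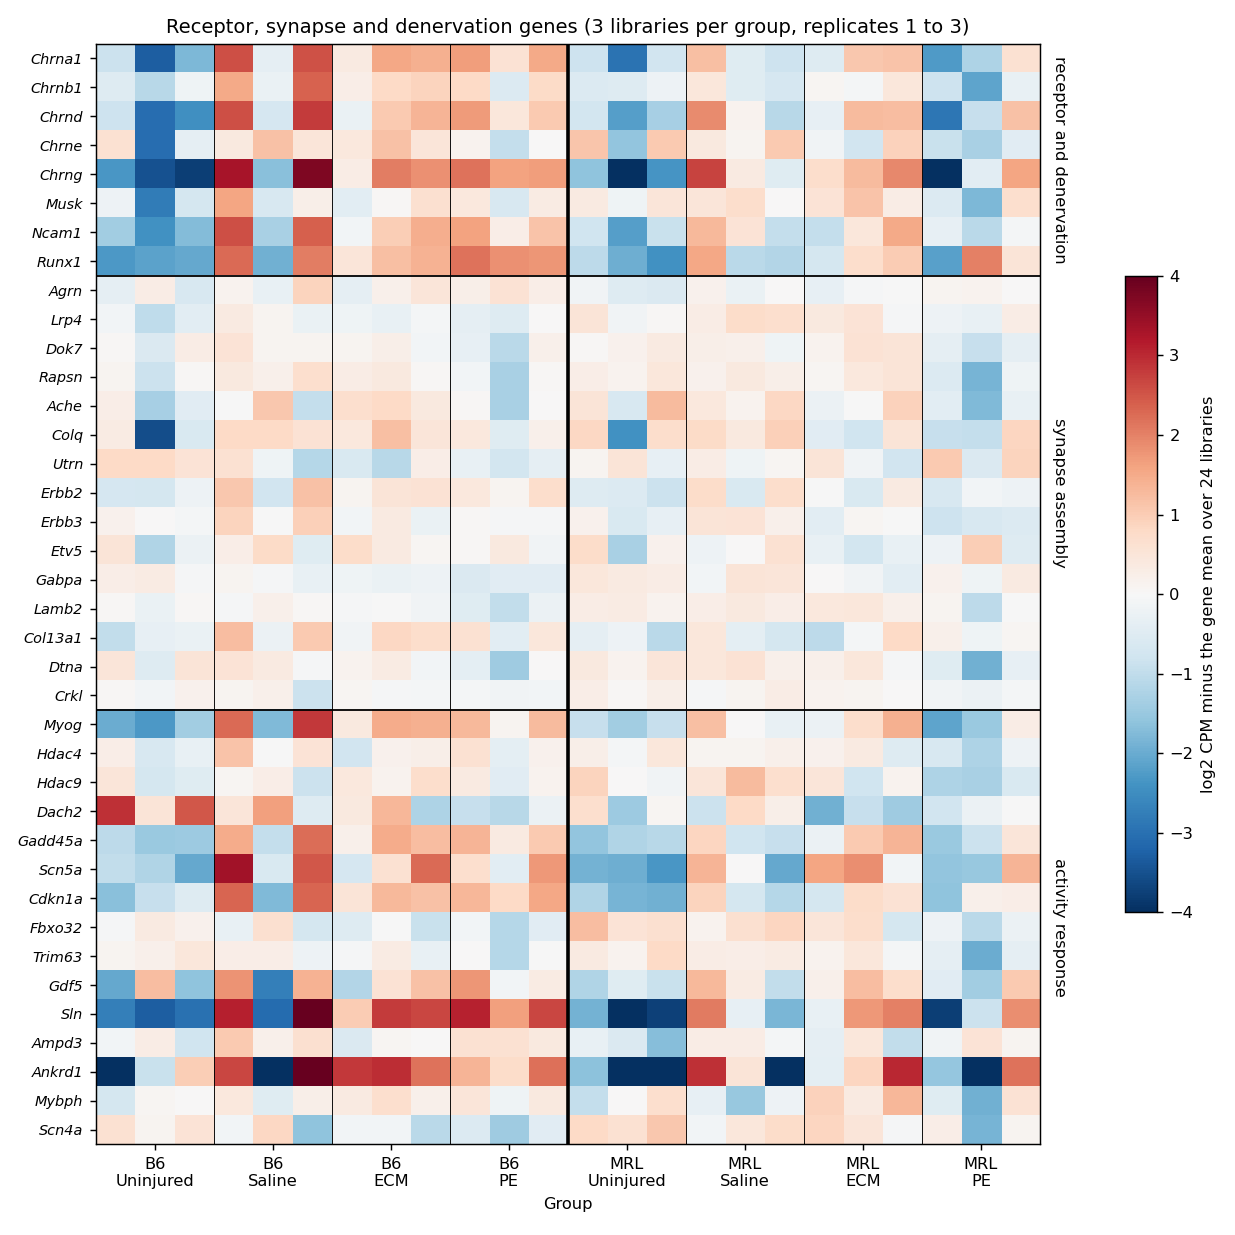
Log2 CPM minus the mean of the gene over the 24 libraries (colour, cut at -4 and 4) for the 8 genes, 15 synapse assembly genes and 15 activity response genes (rows), with 3 libraries per group in the order of replicates 1 to 3 (columns). Chrna1, Chrnd, Chrng, Ncam1, Runx1, Myog and Sln are red in B6 Saline replicates 1 and 3. In replicate 2 Chrng, Ncam1, Runx1, Myog and Sln are blue (from -1.31 for Ncam1 to -3.08 for Sln), and Chrna1 and Chrnd are pale (-0.37 and -0.68). Most synapse assembly genes stay pale.

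Of 12 genes of immature and regenerating fibres, 6 were called higher and 0 lower after PE in B6, against 24.8% of all genes called, among them *Myh8*, the perinatal myosin (4.25, limma adjusted p = 0.0208), *Myh3*, the embryonic myosin (3.89, adjusted p = 0.0338), and the fusion proteins myomaker, listed as *Tmem8c* (4.10, adjusted p = 0.0290), and myomerger, listed as *Gm7325* (4.11, adjusted p = 0.0367). In the other comparisons with uninjured muscle limma called 0 of the 12, against 0% to 0.424% of all genes called after saline or ECM and 9.73% after PE in MRL. In B6 Saline replicate 2 *Myh8* stood at 3.16 against 9.24 and 9.22 in the other 2 libraries of its group.

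Markers of other tissues differed in the same comparison. After PE in B6 11 of 12 leukocyte genes and 5 of 7 fibroblast and scar genes were called higher, and 6 of 8 measured Schwann cell and myelin genes, 2 of 7 adipocyte genes and 1 of 12 adult fibre genes lower. The summed adult fibre level was 66054 to 140981 CPM after PE in B6 and 164276 to 215857 CPM in uninjured B6 muscle. In MRL PE the adipocyte sum was 4889, 415 and 3115 CPM in replicates 1 to 3, against 234 to 2263 CPM in uninjured MRL muscle. Every leukocyte gene was above 0 in each B6 PE library, while *Siglecf* was at 0 in the 3 uninjured B6 libraries and *Cd3e* and *Siglecf* in MRL PE replicate 3. The part of this makeup in the differences of the 8 genes was not tested. Centring on the adult fibre genes cannot test it, since it shifts all genes of a library alike. With it 7 of the 8 were called after PE in B6 and 1, *Runx1*, after PE in MRL. With that centring 2729 and 6879 of the 14159 genes were called, or 19.3% and 48.6%, against 24.8% and 9.73% without it.

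Across the 24 libraries the 8 genes fell into those that moved closely together and those that did not, given here as a description over libraries that share groups. Pearson's r was 0.97 between *Chrna1* and *Chrnd*, 0.96 between *Chrnd* and *Chrng* and 0.92 between *Chrna1* and *Ncam1*. For *Chrne* it ran from 0.11 with *Runx1* to 0.59 with *Musk*. Among genes outside the 8, leaving out predicted and clone symbols, the embryonic myosin gene *Myh3* was the most like *Chrna1*, *Chrnd* and *Chrng*, with r of 0.94, 0.96 and 0.96. Next came *Gdnf* and *Kcnn3* for *Chrna1* (0.94 and 0.94), *Kcnn3* and *Aif1l* for *Chrnd* (0.94 and 0.94) and *Sln* and *Tmem8c* for *Chrng* (0.96 and 0.95). *Kcnn3* encodes the SK3 potassium channel, which appears in denervated muscle, and *Gdnf* encodes a trophic factor for motor neurons.

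For *Ncam1* the 3 most alike were *Kcnn3*, *Myog* and *Ccdc141* (0.94, 0.93 and 0.92), and for *Runx1* they were *Emb*, *Tmem132a* and *Arhgap28* (0.96, 0.95 and 0.95). *Chrne* was most like *Colq* (0.92), followed by *Wnt5b* and *Kcne1l* (0.85 and 0.84). *Chrnb1* was most like the chaperone gene *Hspb8*, the myogenic factor gene *Myod1* and *Map1lc3a* (0.95, 0.94 and 0.93). *Musk* had the lowest values, with *Zfp346*, *Nxn* and *Prkcq* (0.85, 0.83 and 0.83).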

How the data were processed

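Polyadenylated RNA of whole quadriceps was sequenced in 24 libraries, which the study describes as independent samples. The authors quantified reads with kallisto against the Ensembl mouse cDNA, summed transcripts to genes with tximport (lengthScaledTPM), kept genes above 1 CPM in at least 3 libraries, applied TMM scaling and deposited log2 CPM values that carry a prior count of 2. The submitters' processing notes name GRCm39. Of 14160 rows, 1 without a symbol was left out. From the value of a count of 0, the mean effective library size was 25149678 reads and 3 counts were 0.119 CPM. The depth of single libraries cannot be read from log2 CPM, and low levels are the least precise. CPM was recovered by removing the prior.

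No count model was fitted. The comparisons were made with limma 3.58.1 in R 4.3.3 (1 coefficient per group, all 24 libraries, variance trend, 2-sided, Benjamini-Hochberg within each comparison), which was tested on simulated data, and the subunit balance with exact 2-sided permutation tests. Lengths are those of the Ensembl canonical transcripts in GENCODE vM39, which also gave positions. Summaries and figures used Python 3.11.15, pandas 2.3.3 and matplotlib 3.10.9.

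The 8 genes and all lists were chosen with earlier results of these data known. The lists are synapse assembly, activity and denervation response, immature and regenerating fibre, adult fibre, Schwann cell and myelin, leukocyte, adipocyte, and fibroblast and scar genes. From each list up to 4 genes per comparison with the largest differences could be named, together with any gene in which 1 library stood apart and, for each of the 8 genes, the 3 most alike by Pearson's r. *Gadd45a*, *Cdkn1a*, *Gabpa*, *Fbxo32* and *Hdac9* were named outside that rule, because they were called. *Mymk*, *Mymx* and *Adgre1* were matched by the older symbols *Tmem8c*, *Gm7325* and *Emr1*.

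Residuals of libraries with the same replicate number correlated above 0.1 for all 3 numbers only in PE-treated MRL against PE-treated B6 mice (0.10, 0.53 and 0.44), a pairing seen in the data and not stated in the labels. The block called 0 of the 8 genes there too. Tried as alternatives were the log2(CPM + 1) scale, a minimum mean log2 CPM of 1, equal totals, quantile normalization, library weights fitted gene by gene, a constant prior variance, the compared groups alone, each library left out, the replicate block and, chosen after seeing the data, centring on the 12 adult fibre genes.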

Additional observations from a re-analysis of the deposited data

How the results depend on the processing

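Counts of the 8 genes called did not move by more than 1.5 times under the log2(CPM + 1) scale, the filter on low values, equal totals, quantile normalization, a constant prior variance or the replicate block, and the block changed no call. With library weights the 8 genes gave 7 calls for saline and 5 for ECM against uninjured B6 muscle, 4 for MRL against B6 after saline, 6 for MRL against B6 after PE and 2 for the PE interaction, among 1076, 2478, 2303, 6477 and 3001 of 14159 genes called. The difference of *Chrnb1* after saline in MRL became -0.050 there. The weights of B6 Saline were 2.36, 0.430 and 0.222 in replicates 1 to 3, so replicate 2 did not have the lowest. With the compared groups alone, ECM in B6 gave 5 calls among 893 genes called. Centred on adult fibre genes, PE in MRL gave 1 call among 6879, and the differences of *Chrnb1*, *Chrne* and *Musk* became 0.56, 0.15 and 0.43. That centring moved the median of all genes to 1.01 after PE in B6 and to 1.29 in MRL, and equal totals moved them to 0.43 and 0.47.

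With each library left out in turn, calls ran from 0 to 6 for saline in B6, from 0 to 5 for PE in B6, from 0 to 1 for PE in MRL and from 0 to 1 for MRL against B6 after saline. The difference of *Chrne* ran from -0.38 to 1.44 for PE in B6, from -0.56 to 0.78 for saline in MRL and from -1.06 to 0.28 for ECM in MRL. That of *Chrnb1* ran from -0.15 to 0.41 and that of *Musk* from -0.021 to 0.37 for saline in MRL. For PE in MRL *Chrna1* ran from -0.24 to 1.21 and *Chrnd* from -0.48 to 1.54, and *Musk* in MRL against B6 after PE ran from -1.21 to 0.027. The balance of *Chrng* and *Chrne* ran from -2.38 to 0.66 for ECM against saline and from -0.99 to 2.04 for PE against saline in B6, from -1.56 to 1.11 for PE against saline and from -2.50 to 0.17 for PE against ECM in MRL, and from -1.44 to 0.044 uninjured and from -2.72 to 0.31 after saline between strains. The cause of these shifts was not tested. With 3 libraries per group an exact test cannot go below p = 0.1, and levels of *Chrng* in uninjured muscle rest on few reads.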
